A study of Mus musculus with 6 samples.

Results

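Integrins and the adhesion molecules of the immunoglobulin superfamily were followed in macrophages from the mouse peritoneum, the phagocytes that live in the abdominal cavity. The members were all protein-coding genes whose symbol is Itga or Itgb followed by a digit, with Itgad, Itgae, Itgal, Itgam, Itgav and Itgax, and 9 immunoglobulin genes (Icam1, Icam2, Icam4, Vcam1, Pecam1, Alcam, Clmp, F11r and Jaml). This gave 39 of the 54532 genes counted. They comprise 18 integrin alpha chains, 9 integrin beta chains, the 9 immunoglobulin genes and 3 genes that share the symbol but encode no integrin (Itgb1bp1, Itgb1bp2 and Itgb3bp).

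Messenger RNA was sequenced in 3 negative controls and in 3 libraries whose labels say that Rfx1, a transcription factor gene, was overexpressed, all from cultured macrophages grown with fetal bovine serum. The labels give no strain, age, vector, time after delivery or number of animals, and do not say whether libraries of a group came from separate cultures. The p-values therefore measure only the spread between these libraries, which may be technical. The comparison asks which adhesion transcripts differ between the groups.

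An integrin is a pair of 1 alpha and 1 beta chain at the cell surface, and the pairing sets what it binds. Itgb2 pairs with Itgal, Itgam, Itgax or Itgad to give the leukocyte integrins, which bind Icam family proteins and, for some, complement fragments. Itgb1 and Itgav pair with many partners to bind fibronectin, collagens, laminins and other matrix proteins. Peritoneal macrophages are known for high Itgam. In human CD4+ T cells RFX1 has been described as a repressor of ITGAL.

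Before the members, the libraries themselves need description. Counts in genes ran from 16461277 to 18795575 a library, and 13454 genes had enough to be tested. Levels below are CPM, read counts scaled to a common library size with TMM factors, and group values are mean ± SD with n = 3. Rfx1 was at 57.6, 10.97 and 14.8 CPM in controls 1, 2 and 3 and at 40.8, 36.4 and 23.2 CPM in overexpression 1, 2 and 3. The groups overlapped (log2 difference 0.27 ± 0.58 SE, edgeR adjusted p = 0.80), and the library labelled control 1 held the highest level, against its label. Without control 1 the log2 difference of Rfx1 was 1.37 (edgeR adjusted p = 0.024). It was -0.10 without control 2 and -0.044 without control 3. All directions below rest on the labels. Of 16 macrophage markers, 15 were tested, of which 3 rose, 4 fell and 8 did not pass (46.7% called, against 12.9% of all genes tested). Cd68 (1893 to 2714 CPM), Csf1r (235 to 715 CPM) and Adgre1 (154 to 846 CPM, risen) were present in every library. The 4 that fell were C1qa, C1qb, C1qc and Gata6, the factor of resident peritoneal macrophages. Of the 3 that rose, only Adgre1 is named here. Mitochondrial mRNA made up 2.01%, 3.44% and 3.77% of the counts of controls 1, 2 and 3 and 0.547%, 1.62% and 1.81% of those of overexpression 1, 2 and 3, without overlap, and its part in the results was not tested. Lyz2, the lysozyme gene of myeloid cells, was not at a like level in all: it had 15672, 38702 and 28352 CPM in the controls and 29281 CPM in overexpression 3, but 44.7 and 40.8 CPM in overexpression 1 and 2. Its lowest level in those 4 libraries was 351 times its highest in overexpression 1 and 2, and the next gene by that ratio reached 15.2. The near-identical Lyz1 had 332 and 299 CPM in overexpression 1 and 2 and 58.5 to 261 CPM elsewhere. What sets these libraries apart was not tested, and it is not in the labels. Each member that passed is therefore also given without overexpression 3, and with overexpression 3 alone against the controls. That last fit takes its spread from the controls and assumes that the lone library varies like them.

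Of the 39 members, 29 had enough counts to be tested and 10 did not. In edgeR (quasi-likelihood test, p adjusted by Benjamini-Hochberg over all 13454 genes), 5 members rose (Clmp, Itga1, Icam1, Itgam and Itga5) and 3 fell (Itga3, Itgax and Alcam). The share called among all genes tested was 12.9%, with 6.9% higher and 5.97% lower, against 27.6% of the tested members. The median log2 change was 0.07 over the tested members and -0.01 over all genes tested. By kind of protein, 5 of 14 tested alpha chains were called, none of 6 beta chains (edgeR; 1 of the 6, Itgb7, had an unadjusted p under 0.05 at 0.020, limma-voom called Itgb5 and Itgb7, and DESeq2 did not change the members called) and 3 of 7 immunoglobulin genes. Whether these shares differ was not tested. The members were chosen with earlier results of these data known, so a share above that of all genes may come from the choice. The groups did not overlap, with overexpression above, in 6 of the 29 tested members (16.3% of all genes tested) and below in 6 (17.1% of all genes tested).

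**Figure D1:**
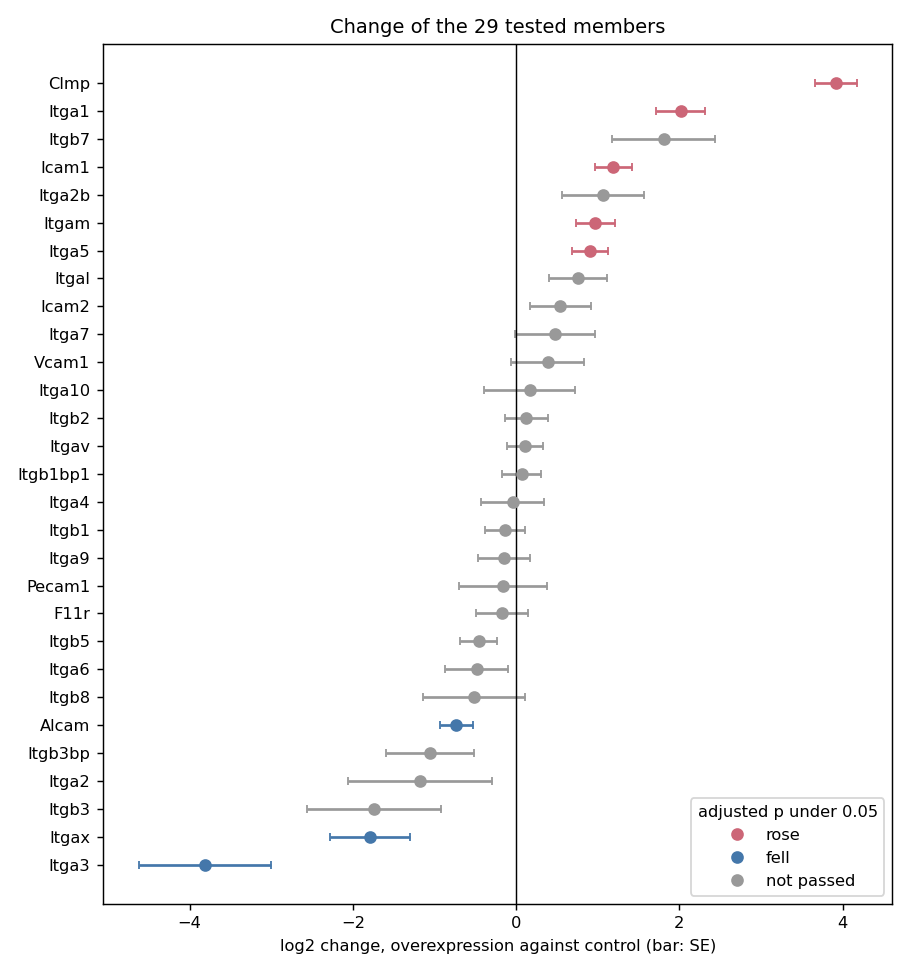
Log2 change of each tested member (x axis, overexpression against control; bars are the SE) with members ordered by change. Clmp at 3.91 lies farthest to the right and Itga3 at -3.81 farthest to the left, and the 6 beta chains are all drawn as not passed.

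Without overexpression 3, 8 of 31 tested members passed, 7 of them the same. That is close to the share of all genes called in that fit, 24.7%. With overexpression 3 alone against the controls 1 member passed, Clmp, against 2.37% of all genes. Leaving out overexpression 2 left 2 of 29 tested members, control 2 or control 3 left 3 of 30, and overexpression 1 left 4 of 31. Each of these fits also called fewer genes in all (5.12% to 8.65%). Without control 1 the number was 10 of 29, against 11.7% of all genes. Dropping control 1 and overexpression 3 together gave 12 of 29 members, against 28.8% of all genes. That fit was chosen, like the fit of overexpression 3 alone, once the data had been seen.

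Clmp had the largest rise of the members. It encodes an immunoglobulin adhesion molecule of cell junctions, related to the coxsackie and adenovirus receptor Cxadr, and lies on chromosome 9 at 40685962 to 40785319 of mm10 (+ strand, ENSMUSG00000032024). Its level was 8.60, 12.2 and 12.6 CPM in controls 1, 2 and 3 and 145, 160 and 198 CPM in overexpression 1, 2 and 3. The groups did not overlap, and overexpression 3 held the most. The mean rose from 11.1 ± 2.203 to 168 ± 27.3 CPM, 15.1-fold (log2 change 3.91 ± 0.26 SE, edgeR adjusted p = 9.1e-05). It passed in all 17 alternative fits, with log2 changes of 3.63 to 4.16. The log2 change was 3.77 without overexpression 3 and 4.16 with overexpression 3 alone. Exons of the antisense transcript Gm16096 cover 10.1% of its exon bases but held 46 counts over all libraries, against 8937 for Clmp. Cxadr itself had 7.37, 29.5 and 38.5 CPM in control libraries, against 0.753, 2.72 and 7.97 CPM in overexpression libraries, opposite to Clmp in sign (log2 difference -2.71 ± 0.82 SE, edgeR adjusted p = 0.065, not passed). Cxadr was named after its values were seen.

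Icam1, the inducible ligand of the Itgb2 integrins, also rose. It had 70.7, 53.6 and 55.4 CPM in control libraries, against 130, 167 and 113 CPM in overexpression libraries, with no overlap. The mean rose from 59.9 ± 9.45 to 137 ± 27.6 CPM, 2.28-fold (log2 change 1.19 ± 0.23 SE, edgeR adjusted p = 0.0093). The call was lost on leaving out control 2, control 3 or overexpression 2 (at adjusted p = 0.056, 0.051 and 0.054). It held without overexpression 3 (adjusted p = 0.0023), and overexpression 3 alone gave a log2 change of 0.92 (adjusted p = 0.12). Counts on the overlapping antisense gene Gm47079 totalled 3.

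Icam1 is a textbook target of NF-kB, and its start region is printed because it holds letters of that kind of site. The window is RefSeq's (GRCm38.p6, 250 bases before to 50 after the start, chr9:21015690-21015989, + strand). Capitals mark matches to GGNNNTTCC, a kappaB-like string, on either strand.
Icam1: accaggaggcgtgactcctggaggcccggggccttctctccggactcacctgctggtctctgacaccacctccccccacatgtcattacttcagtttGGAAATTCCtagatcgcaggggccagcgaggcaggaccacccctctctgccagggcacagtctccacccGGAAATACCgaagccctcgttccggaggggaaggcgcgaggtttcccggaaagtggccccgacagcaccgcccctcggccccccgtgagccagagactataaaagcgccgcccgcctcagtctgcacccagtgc
The kappaB-like strings begin 153 and 84 bases before the RefSeq start. The first of them matches on both strands. Windows were found for 26 of the 39 members, 28 windows in all, and Clmp had none. The kappaB-like string stood in 7 of the 28 and in 18.5% of all 32851 windows of that length. A loose form of the X-box, the palindrome bound by RFX proteins, stood in none of the 28 and in 1.88% of all, and its arm GTTGCC in 2 of 28 (Itgb5 and Itgb8) and 12.5% of all. These are matches of letters in a short window, not binding sites.

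The other immunoglobulin ligands of integrins did not pass. Vcam1, which binds Itga4 with Itgb1, had 4.53, 9.48 and 12.6 CPM in control libraries, against 9.92, 18.1 and 6.67 CPM in overexpression libraries (log2 difference 0.39 ± 0.44 SE, edgeR adjusted p = 0.62). Icam2, a constitutive ligand of Itgal, had 3.33 to 6.94 CPM in control libraries, against 4.78 to 8.38 CPM in overexpression libraries (adjusted p = 0.38). F11r, a junctional molecule also called JAM-A that binds Itgal, had 14.5 to 30.0 and 16.4 to 28.2 CPM (adjusted p = 0.77). In all 3 the groups overlapped. Icam4, known from red cells, had no count in any library.

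Alcam, which binds itself and Cd6 on T cells, fell. It had 207, 243 and 219 CPM in control libraries, against 131, 154 and 118 CPM in overexpression libraries, with no overlap. The mean was 223 ± 18.6 against 134 ± 18.2 CPM, and it fell by 0.73 ± 0.21 (SE) on the log2 scale (edgeR adjusted p = 0.045). This call was close to the threshold: it was lost whichever library was left out (adjusted p = 0.060 to 0.16). The direction held in all 17 alternative fits. The log2 change was -0.65 without overexpression 3 and -0.91 with overexpression 3 alone. Pecam1, the homophilic molecule of endothelium and platelets, was at 1.012 to 2.08 and 0.767 to 1.98 CPM (adjusted p = 0.87). Jaml, a partner of Cxadr on leukocytes, had 2 to 21 counts a library and was not tested.

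Among the leukocyte integrins, the common beta chain did not pass while 2 of its alpha partners moved in opposite directions. Itgb2 had 1693, 1891 and 2018 CPM in control libraries, against 1726, 2419 and 1972 CPM in overexpression libraries (log2 difference 0.13 ± 0.26 SE, edgeR adjusted p = 0.79), and the groups overlapped.

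Itgam, the CD11b chain of complement receptor 3, rose. It had 294, 238 and 193 CPM in control libraries, against 481, 508 and 431 CPM in overexpression libraries, with no overlap. The mean rose from 242 ± 50.7 to 473 ± 39.1 CPM, 1.96-fold (log2 change 0.97 ± 0.24 SE, edgeR adjusted p = 0.026). Leaving out control 2, control 3, overexpression 1 or overexpression 2 ended the call (adjusted p = 0.10, 0.14, 0.052 and 0.11), as did scaling by library size alone (0.069). It held without overexpression 3 (0.014), and that library alone gave a log2 change of 0.84 (adjusted p = 0.24). The annotated gene Gm49368 shares 68.7% of the exon bases of Itgam on the same strand but held 19 counts in all, against 37528 for Itgam. Whether reads that fall in both were dropped was not stated, and if they were, neither count includes them. Neutrophils also carry Itgam. Of 4 tested neutrophil markers 2 rose, Mmp8 and Camp, and 1 fell, Padi4 (75% called, against 12.9% of all genes tested). The list of 12 summed to 52.2 to 108 CPM in control libraries, against 190 to 419 CPM in overexpression libraries, most of the latter from Mmp8 (146 to 379 CPM). Within that list Ly6g and Stfa2l1 were at 0 in every library, and the part of these cells in the rise of Itgam was not tested.

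Itgax, the CD11c chain known from dendritic cells and tissue macrophages, fell. It had 120, 175 and 260 CPM in control libraries, against 33.3, 28.9 and 98.0 CPM in overexpression libraries. The groups did not overlap, but overexpression 3 lay close to control 1. The mean was 185 ± 70.5 against 53.4 ± 38.7 CPM, and it fell by 1.79 ± 0.49 (SE) on the log2 scale (edgeR adjusted p = 0.044). Leaving out control 2, control 3, overexpression 1 or overexpression 2 ended the call (adjusted p = 0.10, 0.11, 0.14 and 0.15). Without overexpression 3 the fall was larger, at -2.57 on the log2 scale (adjusted p = 3.6e-04), and that library alone gave -0.91 (adjusted p = 0.37). Of 5 tested dendritic cell markers 2 rose and 1 fell (60% called, against 12.9% of all genes tested). Their list of 10 summed to 11.3 to 13.3 CPM in control libraries, against 22.5 to 37.4 CPM in overexpression libraries, with Siglech at 0 throughout. The part of dendritic cells in the fall of Itgax was not tested.

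Itgal, the CD11a chain, overlapped between the groups. It had 123, 45.7 and 57.9 CPM in control libraries, against 106, 121 and 156 CPM in overexpression libraries (log2 difference 0.75 ± 0.35 SE, edgeR adjusted p = 0.20). Control 1 stood above the other controls, and without it the log2 difference was 1.30 (adjusted p = 0.016). Itgad, the CD11d chain, had no count in the controls, which allows up to 3 counts over the group, and 3, 0 and 3 counts with overexpression.

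These 4 alpha genes lie on chromosome 7 of mm10, Itgam (128062640 to 128118491), Itgax (128129547 to 128150657) and Itgad (128154376 to 128223816) side by side and Itgal (127296260 to 127335138) farther off, all on the + strand. The windows at the starts of the neighbours that moved apart are printed to show how different they are. Both are RefSeq's on GRCm38.p6, at chr7:128062390-128062689 for Itgam and chr7:128129300-128129599 for Itgax, + strand. Capitals mark GAGGAA on either strand, the core of a site for PU.1, the myeloid factor known to act on the Itgam promoter.
Itgam: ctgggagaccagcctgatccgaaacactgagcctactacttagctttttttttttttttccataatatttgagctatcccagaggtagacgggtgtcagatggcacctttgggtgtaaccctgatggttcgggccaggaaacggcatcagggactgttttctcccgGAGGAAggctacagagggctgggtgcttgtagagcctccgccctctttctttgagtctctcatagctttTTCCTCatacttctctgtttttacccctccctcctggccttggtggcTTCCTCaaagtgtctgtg
Itgax: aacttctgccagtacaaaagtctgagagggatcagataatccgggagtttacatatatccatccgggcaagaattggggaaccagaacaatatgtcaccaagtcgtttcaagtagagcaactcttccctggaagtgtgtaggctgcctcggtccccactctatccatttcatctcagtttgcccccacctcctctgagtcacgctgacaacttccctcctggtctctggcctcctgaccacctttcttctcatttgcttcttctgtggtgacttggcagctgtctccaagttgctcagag
The Itgam window holds 3 copies, which begin 84 and 15 bases before and 32 bases after the RefSeq start, and the Itgax window none. The absence of this exact string does not show that PU.1 has no site there. GAGGAA stood in 12 of the 28 member windows and in 28.3% of all windows, and none of the strings searched was found in the Itgax window. None of this was tested against the changes.

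The mix of alpha chains that can pair with Itgb2 was set out on a scale of length, as CPM per kilobase of merged exons, and no share passed a test on its own. Itgam made up 57.2%, 52.2% and 37.8% of their summed level in controls 1, 2 and 3 and 80.5%, 80.6% and 66.0% in overexpression 1, 2 and 3. Itgax made up 24.5%, 40.1% and 53.4% in the controls and 5.83%, 4.80% and 15.7% with overexpression. Neither share overlapped between the groups, and control 3 was the only library in which Itgax exceeded Itgam. Gm49368 shares 68.7% of the exon bases of Itgam on the same strand. If reads in both genes were dropped, Itgam is understated, and so are its share and the summed alpha level. Which of Itgam and Itgax is higher within a library is therefore uncertain. The mean share of Itgam was 49.1% ± 10.06 against 75.7% ± 8.40, and that of Itgax 39.3% ± 14.5 against 8.78% ± 6.02. A 2-sided exact permutation test gave p = 0.1 for each, the smallest that 3 against 3 libraries allow, and 0.25 after adjustment over the 5 quantities tested. The share of Itgal was 11.6% ± 5.87 and 15.5% ± 2.44 (exact permutation p = 0.4). The summed alpha level over that of Itgb2 was -2.64 ± 0.18 and -2.41 ± 0.22 on the log2 scale (exact permutation p = 0.2). These shares come from the same counts as the tests of Itgam and Itgax and are no second line of evidence.

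**Figure D2:**
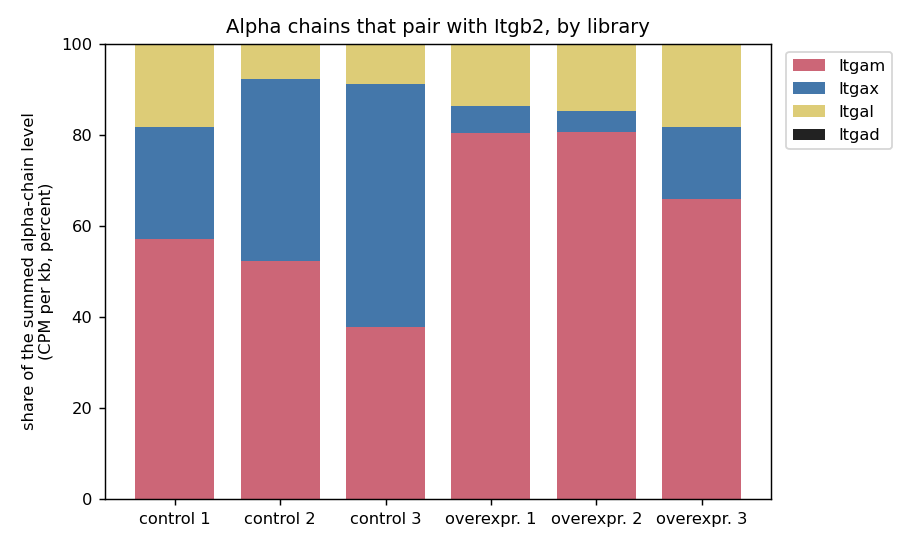
Share of each alpha chain that pairs with Itgb2 in the summed level of the 4, in CPM per kilobase (y axis, percent), 1 bar a library. Itgam takes 37.8% to 57.2% of the control bars and 66.0% to 80.6% of the overexpression bars, and Itgad is too low to be seen.

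Itga1 and Itga5, which pair with Itgb1 to bind collagens and fibronectin, rose. Itga1 had 4.25, 6.12 and 7.85 CPM in control libraries, against 25.2, 30.1 and 18.2 CPM in overexpression libraries, with no overlap. The mean rose from 6.08 ± 1.80 to 24.5 ± 5.98 CPM, 4.04-fold (log2 change 2.02 ± 0.30 SE, edgeR adjusted p = 0.0032). It passed whichever library was left out (adjusted p = 4.1e-04 to 0.027). The log2 change was 2.19 without overexpression 3 and 1.59 with overexpression 3 alone. Itga5, on chromosome 15 at 103344286 to 103366763, had 93.0, 67.7 and 84.9 CPM in control libraries, against 157, 131 and 172 CPM in overexpression libraries, again with no overlap. The mean rose from 81.8 ± 12.9 to 153 ± 20.5 CPM, 1.87-fold (log2 change 0.90 ± 0.22 SE, edgeR adjusted p = 0.022). Its call was lost on leaving out control 2, control 3 or overexpression 2 (at adjusted p = 0.10, 0.088 and 0.056) and when scaled by library size alone (0.097). Without overexpression 3 it held (0.024), and that library alone gave a log2 change of 1.08 (adjusted p = 0.083).

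Of the other chains that bind collagen, Itga2 had 5, 0 and 10 counts with overexpression and 12 to 15 counts in the controls (edgeR adjusted p = 0.42), Itga10 had 9 to 14 counts a library (adjusted p = 0.88) and Itga11, with 0 to 13 counts, was not tested. Itga10 shares 33.5% of its exon bases with Gm42957 on the same strand, which had no counts.

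Itga3, which pairs with Itgb1 as a laminin receptor of epithelia and lies on chromosome 11 at 95044474 to 95076801, fell. It had 3.78, 9.53 and 22.6 CPM in control libraries, against 0.342, 0.397 and 1.77 CPM in overexpression libraries. The groups did not overlap, and within the controls its highest level was several times its lowest. The mean was 11.96 ± 9.63 against 0.836 ± 0.809 CPM, and it fell by 3.81 ± 0.81 (SE) on the log2 scale (edgeR adjusted p = 0.016). The call was lost without overexpression 1 or overexpression 2 (adjusted p = 0.075 and 0.073). Without overexpression 3 the fall was -4.98 (adjusted p = 0.0086), and that library alone gave -2.74 (adjusted p = 0.37). Markers of mesothelial cells, which line the peritoneal cavity, moved with it. Upk3b had 7.08, 56.9 and 66.3 CPM in control libraries, against 0, 0 and 0.0590 CPM in overexpression libraries, and Lrrn4 4.11, 19.9 and 39.9 against 0.205, 0 and 0.118 CPM. Of the 9 tested mesothelial markers 6 fell and 3 did not pass (66.7% called, against 12.9% of all genes tested). The list of 14 summed to 256, 399 and 449 CPM in control libraries, against 187, 186 and 197 CPM in overexpression libraries, with Krt5 at 0 throughout. The median log2 change of the 9 tested was -5.06, a larger fall than that of the sum, in which markers that changed less weigh most. Of 13 tested fibroblast markers 4 fell and 9 did not pass (30.8% called). Their list of 14 summed to 723 to 1850 CPM in control libraries, against 325 to 928 CPM in overexpression libraries, with no marker at 0 in all libraries. The part of these cells in the fall of Itga3 was not tested. In such bulk libraries fewer cells of a type and less RNA per cell cannot be told apart.

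Itga6, another laminin receptor chain, had 49.3, 45.7 and 33.8 CPM in control libraries, against 17.2, 22.0 and 52.8 CPM in overexpression libraries (edgeR adjusted p = 0.46). The groups overlapped through overexpression 3, which held the most of all. Without that library Itga6 had a log2 difference of -1.13 (adjusted p = 0.0086), and that library alone gave 0.31 (adjusted p = 0.66). Itga7 had 1.61 to 6.38 and 4.70 to 4.86 CPM (adjusted p = 0.57). Itgb4, the epithelial partner of Itga6, had 2 to 14 counts a library and was not tested.

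Itgb1, Itgav and the other chains of matrix receptors in this paragraph did not pass. Itgb1, the partner of 12 alpha chains in the families listed here, had 488, 527 and 479 CPM in control libraries, against 347, 501 and 510 CPM in overexpression libraries (log2 difference -0.14 ± 0.24 SE, edgeR adjusted p = 0.75). Itgav, of the vitronectin receptors, had 89.4, 90.1 and 97.1 against 75.1, 120 and 102 CPM (0.11 ± 0.22, adjusted p = 0.79). Its partner Itgb5 had 258, 207 and 187 against 159, 129 and 187 CPM (-0.46 ± 0.23, adjusted p = 0.23), with control 3 only just above overexpression 3. Itgb8, which with Itgav activates TGF-beta, had 14 to 20 counts in the controls and 4 to 19 with overexpression (adjusted p = 0.64). Itga9 had 5.84 to 12.5 and 7.02 to 8.84 CPM (adjusted p = 0.80), Itga8 0 to 3 counts a library, and Itgb6, the epithelial partner of Itgav, none in any library.

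Itgb3, the other common partner of Itgav, varied widely among the controls. It had 3.07, 26.5 and 44.2 CPM in control libraries, against 3.76, 5.38 and 12.8 CPM in overexpression libraries (log2 difference -1.74 ± 0.82 SE, edgeR adjusted p = 0.21). The groups overlapped through control 1, which held the least of all and also held the least Upk3b and Lrrn4 of the controls. Every overexpression library held more Itgb3 than control 1 but less Upk3b and Lrrn4. Without control 1 the log2 difference was -2.27 (adjusted p = 0.014). The part of mesothelial cells in the levels of Itgb3 was not tested. Itga2b, which pairs with Itgb3 on platelets, had 10 to 15 counts in the controls and 17 to 24 with overexpression, with no overlap (1.07 ± 0.50, adjusted p = 0.20). Of 4 tested platelet markers 2 rose, Pf4 and Clec1b (50% called, against 12.9% of all genes tested). The list of 11 summed to 30.1 to 43.0 CPM in control libraries, against 147 to 298 CPM in overexpression libraries. Within that list Gp1bb was at 0 in every library, Gp5 and Gp9 were at 0 with overexpression, and Ppbp reached at most 0.218 CPM. The part of platelets in the level of Itga2b was not tested.

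**Figure D3:**
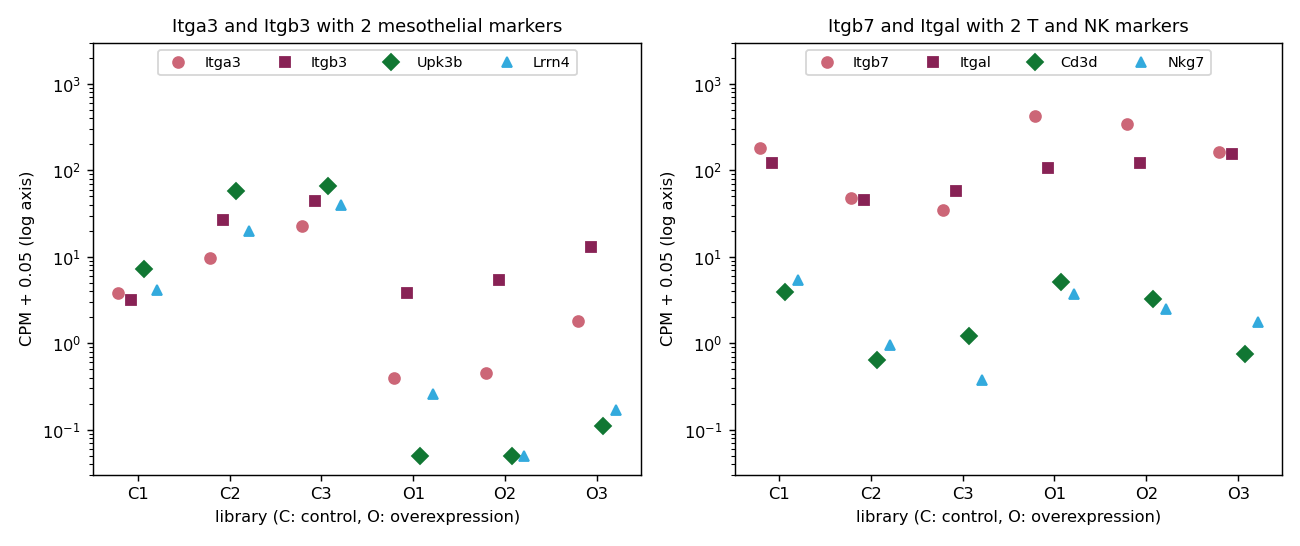
CPM + 0.05 on a log axis in each library (x axis; C1 to C3 are controls, O1 to O3 overexpression), for Itga3 and Itgb3 with mesothelial markers (left) and Itgb7 and Itgal with T and NK cell markers (right). Itga3, Upk3b and Lrrn4 are lowest in control 1 among the controls, and among the controls Itgb7, Itgal, Cd3d and Nkg7 are highest in control 1.

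Itgb7, which pairs with Itga4 or Itgae to give the gut-homing and intraepithelial receptors of lymphocytes, had the largest rise in mean that did not pass. It had 181, 47.8 and 34.4 CPM in control libraries, against 420, 341 and 162 CPM in overexpression libraries (log2 difference 1.81 ± 0.63 SE, edgeR adjusted p = 0.10). The groups overlapped, since control 1 exceeded overexpression 3. Without control 1 the log2 difference was 2.90 (adjusted p = 0.0028) and with overexpression 3 alone it was 0.90 (adjusted p = 0.76). Its partners did not pass. Itga4 had 55.3, 28.9 and 43.4 CPM in control libraries, against 20.6, 39.1 and 64.0 CPM in overexpression libraries (-0.04 ± 0.39, adjusted p = 0.96), and Itgae had 0 to 8 counts a library. Markers of T and NK cells, which carry Itgal, Itga4 and Itgb7, summed to 61.5, 13.8 and 10.6 CPM over 14 genes in control libraries, against 31.5, 29.01 and 11.4 CPM in overexpression libraries. Of 9 tested, 0 passed in edgeR, against 12.9% of all genes tested (0 had an unadjusted p under 0.05, DESeq2 called 0 and limma-voom 1). B cell markers summed to 74.5 to 133 and 67.3 to 70.8 CPM over 10 genes. Of 7 tested, 0 passed in edgeR (2 had an unadjusted p under 0.05, DESeq2 called 1 and limma-voom 0). Among all genes tested, DESeq2 called 19.1% and limma-voom 37.9%. The part of these cells in the levels of Itgb7 and Itgal was not tested.

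**Figure D4:**
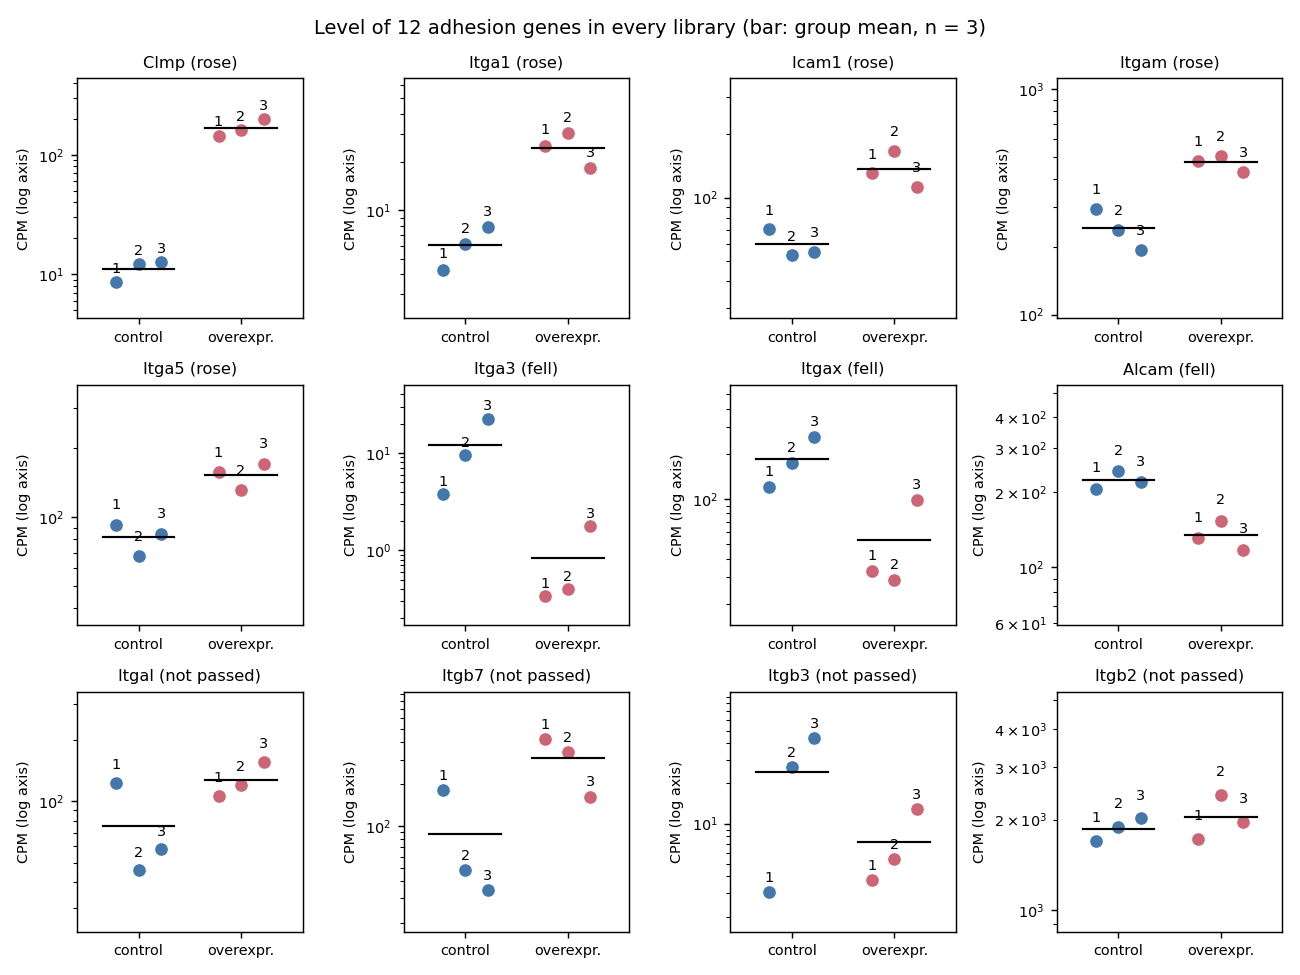
CPM on a log axis in each library for the 8 members that passed and 4 that did not (numbers mark the replicate, bars the group mean). The controls and the overexpression libraries are separate for the 8, while control 1 lies among the overexpression libraries for Itgal and Itgb7 and below them for Itgb3.

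The 3 genes named after integrins include Itgb1bp1, an adaptor that binds the tail of Itgb1, with 42.1 to 52.2 CPM in control libraries, against 34.3 to 58.7 CPM in overexpression libraries (edgeR adjusted p = 0.88). Itgb3bp, a centromere protein, had 24 to 45 and 8 to 18 counts (adjusted p = 0.24), and it shares exon bases with Pgm1, a far more abundant gene on the other strand, so its counts are uncertain. Itgb1bp2, a muscle protein, had 0 to 6 counts. Itgb2l, a relative of Itgb2, had none in any library.

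Levels of different genes are compared per kilobase of merged exons, which understates genes with many annotated isoforms. Itgam would be understated further if reads shared with Gm49368 were dropped. On that scale Itgb2 led both groups, at 612 ± 53.8 in the controls and 668 ± 115 CPM per kilobase with overexpression. Itgb1 (122 ± 6.24), Itgb5 (61.2 ± 10.3), Itgam (48.1 ± 10.09) and Itgax (38.5 ± 14.7) followed in the controls, and neighbours among the last 3 did not differ beyond their spread. With overexpression Itgb7 (111 ± 47.6), Itgb1 (111 ± 22.5) and Itgam (94.2 ± 7.77) stood next to Itgb2 and did not differ beyond their spread. Itgax moved from rank 5 to rank 12 of the 39 members and Clmp from 18 to 6, where at 36.5 ± 5.95 it was near Icam1 (31.3 ± 6.32) and Itga5 (31.1 ± 4.16). Clmp thus went from a level near that of Icam2 to one near that of the main ligand of the leukocyte integrins.

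**Figure D5:**
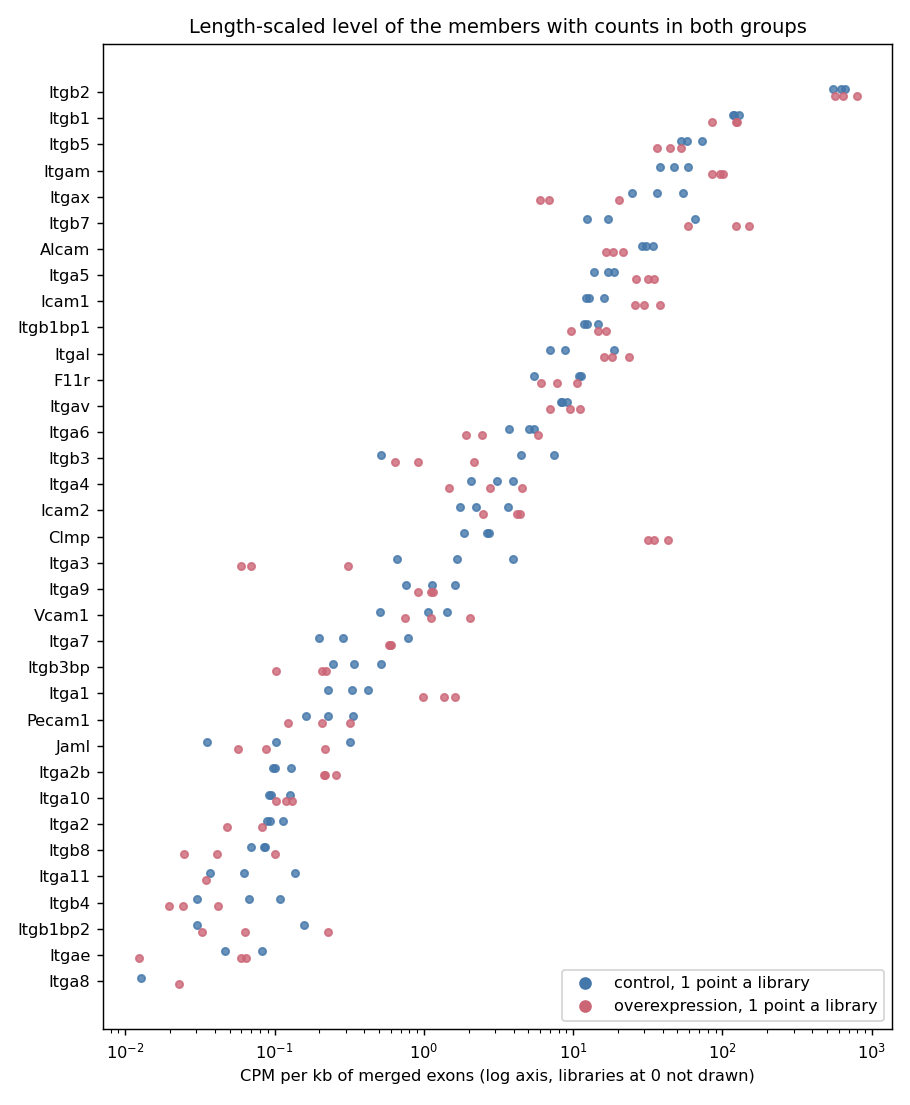
CPM per kilobase of merged exons on a log axis (x axis) for the members with counts in both groups, 1 point a library, ordered by the control mean. Clmp moves right from 2.42 ± 0.480 to 36.5 ± 5.95 and Itga3 left from 2.09 ± 1.69 to 0.146 ± 0.142, while Itgb2 stays at the top.

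Beyond the members, genes that link integrins to the cytoskeleton or switch them on were read from a list of 42. This list and those below were also chosen with earlier results known. Their shares called, set beside all genes, are therefore no measure of enrichment. Of 40 tested, 3 rose, 4 fell and 33 did not pass, 17.5% against 12.9% of all genes, with a median log2 change of -0.37. Cd47, an integrin-associated receptor and the don't-eat-me signal, rose from 166 ± 28.3 to 443 ± 79.4 CPM (log2 change 1.41 ± 0.25 SE, edgeR adjusted p = 0.0059). The kinase gene Src rose from 17.4 ± 1.43 to 41.3 ± 7.36 CPM (adjusted p = 0.0062) and Cyth1, an ARF exchange factor that binds the tail of Itgb2, from 56.8 ± 14.5 to 143 ± 26.6 CPM (adjusted p = 0.0083). Leaving out control 2 took Cyth1 to an adjusted p of 0.052. Those that fell by the smallest p are tensin 1 (Tns1), from 111 ± 36.2 to 35.1 ± 21.5 CPM (adjusted p = 0.029), the actin crosslinker Actn4, from 286 ± 37.01 to 127 ± 48.9 CPM (adjusted p = 0.032), and Parva, which anchors integrin-linked kinase to actin (log2 change -2.09 ± 0.56 SE, adjusted p = 0.039). No fall in this list held without control 2, control 3, overexpression 1 or overexpression 2, while 15 passed without overexpression 3. Calls over all genes moved the same way. From 250 of 13925 to 483 of 14008 genes were called lower in the former fits, and 1800 of 14014 in the last. Talin 1 (Tln1), which activates integrins from inside the cell, had 436 ± 91.4 and 260 ± 78.7 CPM (adjusted p = 0.11), and its partner kindlin-3 (Fermt3) 123 ± 29.6 and 109 ± 10.9 CPM (adjusted p = 0.66). Tln1 and Fermt3 were named after their values were seen.

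Among matrix and soluble ligands of integrins, 41 of 44 listed symbols were in the table. Of 30 tested, 3 rose and 8 fell, 36.7% against 12.9% of all genes (5.97% lower), with a median log2 change of -0.996. Thbs1, thrombospondin 1, rose from 140 ± 33.6 to 1756 ± 1050 CPM (log2 change 3.65 ± 0.46 SE, edgeR adjusted p = 0.0015). C3, whose fragment iC3b is bound by Itgam with Itgb2, rose from 342 ± 98.2 to 1513 ± 205 CPM (adjusted p = 0.0021), and Tgfbi, which binds Itgav integrins, from 39.5 ± 27.2 to 365 ± 154 CPM (adjusted p = 0.0092). Each of the 3 rose in every fit with a library left out. The smallest p-values among the falls were those of the collagen VI chains. Col6a1 fell from 67.8 ± 14.6 to 1.80 ± 1.51 CPM, Col6a2 from 40.3 ± 8.83 to 2.56 ± 2.70 CPM and Col6a3 from 11.99 ± 3.90 to 0.508 ± 0.694 CPM (edgeR adjusted p = 4.9e-04, 0.0053 and 0.0094). Collagen VI is made by fibroblasts, whose markers are given above, and their part was not tested. The number of falls was 3 without overexpression 2 and 4 without control 2, control 3 or overexpression 1. It was 14 without overexpression 3. The share of all genes called in either direction was 5.12% to 8.65% in the former fits and 24.7% in the last. Falls alone, the like comparison, were 250 of 13925 to 483 of 14008 genes in the former and 1800 of 14014 in the last. Fibronectin (Fn1), the ligand of Itga5 with Itgb1, had 1025, 1602 and 2017 CPM in control libraries, against 696, 929 and 2811 CPM in overexpression libraries (adjusted p = 0.95) and was named after its values were seen.

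Of 27 tested adhesion molecules of the immunoglobulin superfamily outside the members, 3 rose and 4 fell, 25.9% against 12.9% of all genes, with a median log2 change of -0.35. Basigin (Bsg), a chaperone of lactate transporters, rose from 391 ± 79.4 to 1368 ± 428 CPM (edgeR adjusted p = 0.0060), the tetraspanin partner Igsf8 from 137 ± 20.1 to 326 ± 98.1 CPM (adjusted p = 0.014) and the poliovirus receptor gene Pvr from 18.5 ± 3.34 to 32.4 ± 2.60 CPM (adjusted p = 0.036). Cadm4 fell from 30.6 ± 15.4 to 2.82 ± 1.68 CPM (adjusted p = 0.0044), the SLAM family gene Cd48 from 93.6 ± 29.7 to 42.0 ± 7.90 CPM (adjusted p = 0.020) and Igsf11 from 2.85 ± 0.250 to 0.911 ± 0.132 CPM (adjusted p = 0.032). The falls numbered 1 without control 2, overexpression 1 or overexpression 2, 2 without control 3 and 10 without overexpression 3, fits whose shares of all genes called are given above. The rises numbered 1 without control 2, control 3 or overexpression 2, and 2 without control 1. Of 7 tested selectins and their ligands 2 fell and 5 did not pass (28.6% called, against 12.9% of all genes). Those that fell were Cd34, from 11.8 ± 6.54 to 1.04 ± 0.479 CPM (adjusted p = 0.0047) and Podxl from 3.77 ± 1.99 to 0.316 ± 0.391 CPM (adjusted p = 0.020). Only 1 of these falls passed without control 2, control 3, overexpression 1 or overexpression 2. With overexpression 3 alone, none of the falls in the adaptor, immunoglobulin or selectin lists passed, and 3 did in the list of ligands.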

How the data were processed

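What the authors deposited is a single table of raw counts, reads per gene for 54532 Ensembl identifiers in 6 libraries, made with a stranded mRNA kit per the labels' protocols. Per the submitters' processing notes, featureCounts 1.5.0-p3 and DESeq2 1.20.0 were among the tools and mm10 was the build. Aligner, annotation release and strand setting: not given in the sources used here. Symbols, positions and merged exon lengths were taken from GENCODE mouse release M21 (54495 identifiers matched and 37 did not). Genes that overlap, on either strand, may thus share reads.

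The tests used edgeR 4.0.16 under R 4.3.3, with TMM factors, the default filter by group, robust quasi-likelihood fits and group as the only term. P-values were adjusted by Benjamini-Hochberg over the 13454 genes kept, with a threshold of 0.05, and 41078 genes were left out. SE was the size of the log2 change divided by the square root of F. Permutation tests of single values were exact. The alternatives were other scalings and filters, limma 3.58.1 (voom with quality weights), DESeq2 1.42.0, a replicate block and leaving out libraries. The fit was tested on simulated data for overexpression against control with 13454 genes, of which it called 40 of 50 at a log2 change of 2, 32 of 50 at -2, 7 of 50 at 1, 3 of 50 at -1 and 7 of 13254 unchanged genes. The simulation drew the noise of each gene independently, without variation shared across a library, so these rates may not hold for the real libraries. A floor of 3 counts over a group covers counting error only. Within a group every library pair differed by more than sampling noise (chi-square per degree of freedom from 40.7 to 201).

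Members and lists were chosen with earlier results of these data known. All members are named, and from each list other than markers up to 3 risen and 3 fallen genes by smallest p.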

Additional observations from a re-analysis of the deposited data

How the results depend on the processing

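The 8 members called kept their direction in every alternative run. All genes called numbered 928 higher and 803 lower. Library size alone gave 648 and 910, took the median over all genes from -0.01 to -0.20 (log2), and left 3 members higher and 3 lower. Without a filter the counts were 1457 and 1460, with limma-voom 2442 and 2661 (8 and 6 members), and DESeq2 gave 1207 lower. Leaving out 1 library gave 454 to 1657 higher and 250 to 1800 lower, with 2 to 7 members higher and 0 to 3 lower. Libraries of the same replicate number had correlations of deviations of 0.094, 0.0053 and 0.327, the last the highest of any pair across the groups. With 3 libraries a group this cannot tell whether the numbers mark pairs, and the labels do not say. The fit with the replicate block called 1902 genes and 8 members, with Itgb7 gained and Alcam lost (adjusted p = 0.0041 and 0.059, edgeR). 2 alternatives were added after seeing the data. Without control 1 and overexpression 3 the counts were 1922 and 2022, with 8 members higher, and Rfx1 was at 1.59 on the log2 scale. With overexpression 3 alone they were 261 and 87, with 1 member higher and 0 lower (edgeR). The shares of the alpha partners of Itgb2 kept their direction in every alternative run for them.

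Log2 differences that changed sign were those of Rfx1 and of members that did not pass, and the cause was not tested. With overexpression 3 alone they were -0.25 for Rfx1, -0.029 for Itga10, 0.60 for Itga4, 0.31 for Itga6, 0.043 for Itgb1, 0.34 for Itgb8, 0.20 for F11r, -0.013 for Icam2, -0.40 for Vcam1 and -0.42 for Itgb1bp1. With library size alone they were -0.043 for Itga10, -0.074 for Itgav, -0.058 for Itgb2 and -0.14 for Itgb1bp1. Itga9 was at 0.18 with limma-voom and, without control 1 and overexpression 3, at 0.27, where Pecam1 was at 0.43. Leaving out 1 library gave -0.10 to 1.37 for Rfx1, -0.51 to 0.29 for Itga4, -0.39 to 0.16 for Itga9, -0.046 to 0.29 for Itgav, -0.23 to 0.039 for Itgb1, -0.0052 to 0.25 for Itgb2, -0.44 to 0.014 for F11r, -0.52 to 0.15 for Pecam1, -0.088 to 0.72 for Vcam1 and -0.077 to 0.26 for Itgb1bp1. Depth limits the genes under about 20 counts a library, such as Itga2, Itga10 and Itgb8.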
